A study of Mus musculus with 8 samples.

Results

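The genes described here are 35 genes of the unfolded protein response and of protein folding in the endoplasmic reticulum (ER), measured in alphaTC6 cells, a mouse line derived from the alpha cells of the pancreatic islet, which make glucagon. They were taken by symbol from a count table of 55536 genes, and all 35 were found. All 35 were also among the 16333 genes that passed the filter on low counts. Poly(A) RNA was sequenced 48 h after reverse transfection with a lipid reagent, and the study asked which genes the transcription factor Klf4 controls in alpha cells. Scramble siRNA was given to 4 cultures and a pool of siRNAs against Klf4 to 4 others. Every culture was of the same cell line and is labelled wild type. Scramble replicates 1 and 2 and Klf4 siRNA replicates 1, 2 and 4 belonged to batch 1. Scramble replicates 3 and 4 and Klf4 siRNA replicate 3 belonged to batch 2. The batches are labelled by number alone, and what set them apart is not given in the sources used here. The extraction text in the labels speaks of islets, whereas each sample is labelled as the cell line.

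Alpha cells make and secrete a peptide hormone, so their ER folds a steady flow of secretory protein. When unfolded protein builds up, the ER membrane sensors Ern1 (IRE1), Eif2ak3 (PERK) and Atf6 start the unfolded protein response. Ern1 splices the mRNA of the transcription factor Xbp1, Eif2ak3 slows translation and favours the making of Atf4 protein, and a cleaved part of Atf6 enters the nucleus. These factors raise chaperones, the machinery that returns misfolded protein to the cytosol for degradation (ER-associated degradation, ERAD), and genes of amino acid supply and cell death. Splicing, translation and cleavage are not read by counts per gene, so the values below are mRNA levels only.

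Library totals lay between 45954151 and 64185987 counts. Expression is stated in CPM, where each library total is first scaled by TMM (factors from 0.964 to 1.02). In a principal component analysis of all tested genes, the leading axis (59.9% of variance) divided the libraries by labelled batch. Klf4 itself measured 39.2, 35.1, 46.3 and 46.8 CPM in scramble replicates 1 to 4 and 12.5, 11.5, 19.8 and 18.8 CPM in Klf4 siRNA replicates 1 to 4. Klf4 was lower in every siRNA library (log2 fold change -1.33, SE 0.17, adjusted p = 0.00830, edgeR). The alpha cell markers were all detected, and their sum was 4951 to 5226 CPM in batch 1 and 11876 to 13190 CPM in batch 2. Gcg, the glucagon gene, was lower with Klf4 siRNA (log2 fold change -0.18, adjusted p = 0.00954, edgeR). Of 7 markers of beta cells, Ins1, Ins2 and Pdx1 were at 0 in every library and 2 were high enough to test. The 7 together summed to 107 to 123 CPM in batch 1 and 139 to 152 CPM in batch 2, and 1 of the 2 tested was called lower with Klf4 siRNA and 1 higher in batch 2. Markers of delta and PP cells summed to at most 0.203 CPM. Markers of stroma, endothelium and blood summed to 2.11 to 2.49 CPM in batch 1 and 2.77 to 3.11 CPM in batch 2, and of the 3 high enough to test 0 were called for treatment and 1 (Cd68) was called higher in batch 2. In these bulk samples fewer cells of a type and less RNA per cell cannot be told apart. Beyond the label of biological replicates nothing says how the cultures were separated, so p-values measure the spread between these libraries.

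Expression of the 35 genes spanned a wide range. Per kilobase of exon, the mean over scramble libraries was highest for Calr, the calcium-binding lectin chaperone calreticulin, at 303 ± 9.22 CPM per kb (SD, n = 4). Atf4 followed at 210.0 ± 32.8 CPM per kb, and its libraries overlapped with those of Hsp90b1 (GRP94, the ER member of the HSP90 family) at 197 ± 10.2 CPM per kb. Hspa5 (BiP, the main ER chaperone of the HSP70 family) and Asns (asparagine synthetase) came next at 174 ± 6.50 and 168 ± 0.640 CPM per kb, and did not differ beyond their spread. Below them Sec61a1, the pore-forming subunit of the translocon, stood at 88.2 ± 3.49 CPM per kb and the membrane lectin Canx (calnexin) at 75.9 ± 2.08 CPM per kb. Each of those was above the next gene in every scramble library. From rank 11 to rank 20, Herpud1 (46.3 CPM per kb) to Ssr1 (30.0 CPM per kb), no gene was separated from its neighbour in the order. At the low end stood Dnajc3 (11.3 ± 0.243), Derl2 (4.48 ± 0.151) and Derl3 (1.67 ± 0.623 CPM per kb), with no overlap between them. Derl3 rested on 128 to 280 counts per library.

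**Figure D1:**
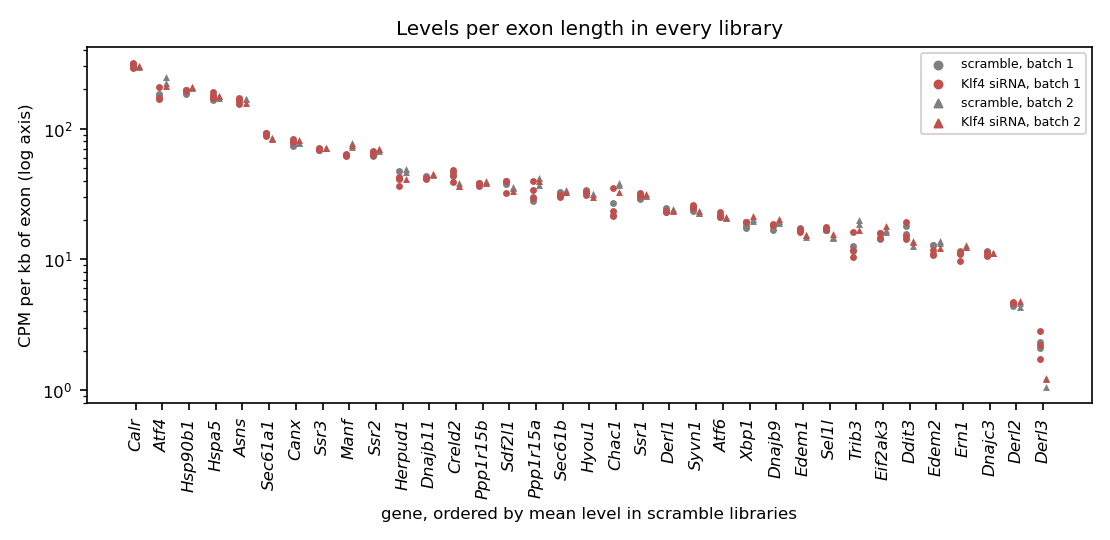
Level of each of the 35 genes in each of the 8 libraries, as CPM per kb of exon on a log axis, with genes ordered by their mean in the scramble libraries. Points are single libraries (grey scramble, red Klf4 siRNA, circles batch 1, triangles batch 2); Calr is highest at 303 CPM per kb in scramble and Derl3 lowest at 1.67.

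Promoters were looked at for the elements through which this response is known to act. RefSeq windows (GRCm38.p6, 300 bases around the transcription start, most of them upstream) were matched for 28 of the genes, in 29 windows. The ER stress response element, CCAAT and CCACG separated by 9 bases on either strand, was in 8 of the 29 windows (27.6%) and in 39 of all 32851 windows (0.119%). The genes were Hspa5, Hsp90b1, Calr, Canx, Dnajc3, Creld2, Syvn1 and Derl3. A second form, ATTGG and CCACG separated by 1 base, was in the windows of Dnajb11 and Herpud1 (6.90%, against 0.0365% of all windows). The core TGATGCAA of the element bound by CHOP and ATF4 was found in Herpud1 and Chac1 (6.90%, against 0.895% of all windows). The XBP1 core TGACGTGG was in 0 of the 29 windows and in 0.676% of all windows. Both stress elements end in CCACG, which the XBP1 core also holds when read on the other strand. These are matches of letters, and binding was not measured.

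A few of the windows are shown 5′ to 3′ on the strand of the gene, with the matched letters in capitals. Hspa5 is the classic carrier of the stress element and Canx the carrier whose mRNA differed between treatments. Creld2 and Derl3 carry it on the opposite strand and were both lower in batch 2. Strand and direction did not go together. Calr, also with an opposite-strand match, was not called between batches, and Hsp90b1, with a match on each strand, was higher. Syvn1, with a match on the same strand, was lower. Herpud1 holds motifs of 2 kinds, and Chac1 holds the CHOP and ATF4 core on the opposite strand. They lie at chr2:34771840-34772139 (Hspa5, plus strand), chr11:50325624-50325923 (Canx, minus strand), chr15:88819396-88819695 (Creld2, plus strand), chr10:75893148-75893447 (Derl3, plus strand), chr8:94386179-94386478 (Herpud1, plus strand) and chr2:119350992-119351291 (Chac1, plus strand).
Hspa5: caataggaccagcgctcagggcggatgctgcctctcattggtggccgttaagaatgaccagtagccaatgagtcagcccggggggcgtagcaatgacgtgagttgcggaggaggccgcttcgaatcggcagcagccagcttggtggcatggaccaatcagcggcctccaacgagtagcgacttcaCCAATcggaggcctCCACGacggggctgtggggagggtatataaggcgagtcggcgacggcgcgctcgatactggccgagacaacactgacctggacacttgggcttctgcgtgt
Canx: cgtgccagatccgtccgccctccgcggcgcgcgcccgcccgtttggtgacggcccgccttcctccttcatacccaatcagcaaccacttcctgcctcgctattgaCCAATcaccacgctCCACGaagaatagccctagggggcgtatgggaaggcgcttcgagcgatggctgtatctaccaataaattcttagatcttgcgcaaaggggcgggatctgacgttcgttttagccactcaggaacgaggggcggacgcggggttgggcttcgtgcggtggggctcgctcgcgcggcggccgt
Creld2: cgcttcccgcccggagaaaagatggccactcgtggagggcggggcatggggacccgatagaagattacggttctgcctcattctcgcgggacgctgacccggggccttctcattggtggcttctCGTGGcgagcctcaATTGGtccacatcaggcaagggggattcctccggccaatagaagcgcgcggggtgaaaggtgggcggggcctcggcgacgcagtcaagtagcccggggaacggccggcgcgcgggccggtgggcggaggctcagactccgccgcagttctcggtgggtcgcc
Derl3: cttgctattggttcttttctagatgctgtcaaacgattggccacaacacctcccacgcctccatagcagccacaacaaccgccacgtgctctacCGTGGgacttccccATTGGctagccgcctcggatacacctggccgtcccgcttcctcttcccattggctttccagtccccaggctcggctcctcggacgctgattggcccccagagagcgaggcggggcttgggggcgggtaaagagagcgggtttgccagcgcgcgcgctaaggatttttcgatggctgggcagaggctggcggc
Herpud1: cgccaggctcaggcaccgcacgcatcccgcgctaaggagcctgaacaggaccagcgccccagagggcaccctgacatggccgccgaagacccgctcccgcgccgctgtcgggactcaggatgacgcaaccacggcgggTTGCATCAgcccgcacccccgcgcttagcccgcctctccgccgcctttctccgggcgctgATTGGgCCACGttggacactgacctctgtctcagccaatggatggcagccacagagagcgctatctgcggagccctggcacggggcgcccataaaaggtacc
Chac1: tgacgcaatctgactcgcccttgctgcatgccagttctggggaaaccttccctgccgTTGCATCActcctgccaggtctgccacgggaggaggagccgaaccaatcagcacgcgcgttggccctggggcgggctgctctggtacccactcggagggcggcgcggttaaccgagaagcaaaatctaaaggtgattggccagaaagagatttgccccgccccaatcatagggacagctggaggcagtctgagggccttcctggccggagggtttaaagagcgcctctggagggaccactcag
In Hspa5 the stress element covers positions -65 to -47 from the start and in Canx -145 to -127. In Herpud1 the second form lies at -52 to -42 and the CHOP and ATF4 core at -112 to -105.

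The first comparison asked whether these genes differed between Klf4 siRNA and scramble cells. Xbp1, Canx and Eif2ak3 rose and Edem2 fell, to levels between 87.9% of control (Edem2) and 109% of control (Xbp1), while Hspa5, Hsp90b1, Calr and Hyou1 and 7 of the 8 ERAD genes did not pass the test. Thus 4 of 35 genes (11.4%) passed an adjusted p of 0.05 in edgeR's quasi-likelihood test with batch as a term, against 11.7% of all genes tested. Higher were 3 of 35, against 4.88% of all genes, and lower was 1, against 6.81%. The share called was therefore near that of all genes tested, which include many of low count. In a fit of the 10387 genes with a mean of at least 5 CPM, 19.4% were called. All of the 35 genes but Derl3 have such a mean, so the shares and medians over all genes are not matched to their levels. The median log2 fold change was -0.0022 over the 35 genes and 4.3e-05 over all genes, with a range from -0.19 to 0.16 in the 35. The median size of the change, sign ignored, was 0.052 in the 35 genes and 0.077 in all genes. The 2 treatments did not overlap for 2 genes, Canx and Edem2 (5.71%, against 10.5% of all genes).

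**Figure D2:**
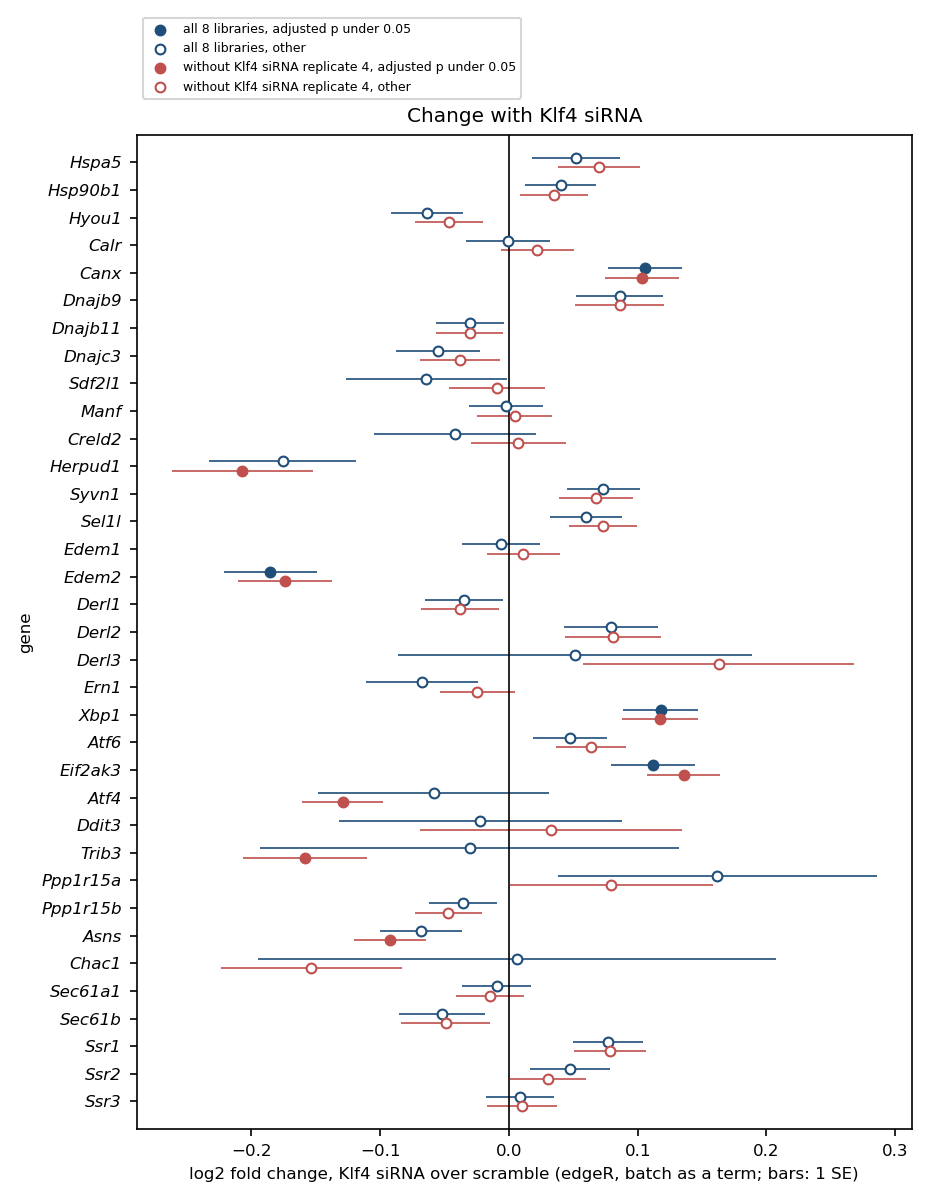
Log2 fold change of each gene with Klf4 siRNA over scramble on the horizontal axis (edgeR, batch as a term, bars 1 SE), from all 8 libraries in blue and without Klf4 siRNA replicate 4 in red, with filled points where the adjusted p is under 0.05. Filled are 4 blue points (Canx, Xbp1 and Eif2ak3 to the right, Edem2 to the left) and 8 red points, with Herpud1, Atf4, Trib3 and Asns added on the left.

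The ER lumen chaperones and lectins showed 1 change among 5 genes, against 11.7% of all genes. Hspa5 measured 764, 700.1, 728 and 748 CPM in scramble replicates 1 to 4 and 802, 759, 756 and 731 CPM in Klf4 siRNA replicates 1 to 4. The treatments overlapped, with Klf4 siRNA replicate 4 below scramble replicates 1 and 4, and the log2 fold change of 0.052 (SE 0.034) did not pass the test (adjusted p = 0.392, edgeR). Canx (ENSMUSG00000020368, chromosome 11, 50293961 to 50325673, minus strand, GRCm38) measured 344, 354, 362 and 366 CPM in scramble and 369.9, 389.9, 382 and 381 CPM in Klf4 siRNA libraries. All Klf4 siRNA libraries were above all scramble libraries, and Canx rose by 0.11 (SE 0.028, adjusted p = 0.0182, edgeR), or to 108% of control. Its call was lost in 6 of 19 alternatives, among them the fits without Klf4 siRNA replicate 2, without scramble replicate 1 and without scramble replicate 2 (adjusted p from 0.000110 to 0.164 over the alternatives). Hsp90b1 (0.040), Calr (-0.00053) and Hyou1 (-0.064), a large chaperone that also exchanges nucleotide on BiP, did not pass the test.

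No co-chaperone or secreted stress protein passed the test, 0 of 6, against 11.7% of all genes. Dnajb9, a J-domain partner of BiP, had the largest difference, at 0.086 (SE 0.034, adjusted p = 0.113, edgeR). Dnajb11 (-0.030), Dnajc3 (-0.055), Sdf2l1 (-0.064), the secreted neurotrophic factor Manf (-0.0022) and Creld2 (-0.042) were smaller in log2 fold change. Translocon and TRAP complex genes, which bring nascent proteins into the ER, also gave 0 of 5. Among them Ssr1 came nearest at 0.077 (adjusted p = 0.0774, edgeR), and Sec61a1 (-0.0096), Sec61b (-0.052), Ssr2 (0.047) and Ssr3 (0.0082) did not pass either.

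In ERAD, 1 of 8 genes changed, against 11.7% of all genes. Edem2 (ENSMUSG00000038312, chromosome 2, 155701677 to 155729475, minus strand) belongs to the family of mannosidase-like proteins that start mannose trimming of glycoproteins bound for degradation. It measured 44.8, 44.2, 46.3 and 47.7 CPM in scramble replicates 1 to 4 and 37.4, 41.1, 42.0 and 38.0 CPM in Klf4 siRNA replicates 1 to 4. Every Klf4 siRNA library was below every scramble library. Edem2 fell by 0.19 on the log2 scale (SE 0.036, adjusted p = 0.00162, edgeR), or to 87.9% of control. Within batch 1 the difference was -0.20 and within batch 2 it was -0.16. The call held when any single library was left out and was lost only when the batch term was dropped (adjusted p = 0.0550). Over all 19 alternatives its adjusted p ran from 4.00e-05 to 0.0550. Herpud1, a membrane protein of the retrotranslocation complex, had a log2 fold change of almost the same size (-0.18, SE 0.057) with a wider spread and did not pass (adjusted p = 0.0852, edgeR). Derl1 (-0.035), Derl2 (0.079) and Derl3 (0.051), the derlin channel proteins, and Syvn1 (0.073), Sel1l (0.060) and Edem1 (-0.0060) did not pass the test.

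Among the sensors and their transcription factors, 2 of 5 rose, against 4.88% of all genes. Xbp1 (ENSMUSG00000020484, chromosome 11, 5520659 to 5525893, plus strand) measured 58.1, 56.6, 65.7 and 64.2 CPM in scramble and 63.2, 62.9, 69.1 and 62.9 CPM in Klf4 siRNA libraries. Within each batch all Klf4 siRNA libraries were above the scramble libraries, while across batches the treatments overlapped. The log2 fold change was 0.12 (SE 0.029, adjusted p = 0.0106, edgeR), with 0.13 within batch 1 and 0.090 within batch 2. Eif2ak3 (ENSMUSG00000031668, chromosome 6, 70844515 to 70905245, plus strand) measured 87.9, 85.6, 97.4 and 100.5 CPM in scramble and 95.2, 96.6, 108 and 88.3 CPM in Klf4 siRNA libraries. Klf4 siRNA replicate 4 was near the scramble libraries of its batch and the other 3 were higher than the scramble libraries of theirs. The log2 fold change was 0.11 (SE 0.033, adjusted p = 0.0291, edgeR), or 108% of control. An annotation on the opposite strand covers 8.05% of the exon bases of Eif2ak3, and whether strand was used in counting is not given in the sources used here.

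These calls were less stable than that of Edem2. The Xbp1 call was lost in 6 of 19 alternatives, including without scramble replicate 1 (0.12, adjusted p = 0.0512, edgeR) and without scramble replicate 2 (0.10, adjusted p = 0.104, edgeR), and its adjusted p ran from 0.00174 to 0.590. The Eif2ak3 call was lost in 11 of 19. It was lost without any 1 of scramble replicates 1, 2 and 3 or Klf4 siRNA replicates 1, 2 and 3, and the adjusted p ran from 1.06e-05 to 0.745. Without scramble replicate 1 the count of genes called fell to 1 of 35 (Edem2), against 5.63% of all genes, and without scramble replicate 2 to 2 of 35, both lower, against 6.06% of all genes. Ern1 (-0.067, adjusted p = 0.395, edgeR) and Atf6 (0.047, adjusted p = 0.350, edgeR) did not pass the test.

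The arm of Atf4 and its target Ddit3 (CHOP, a transcription factor of the death branch) gave no call, 0 of 7. This fit held all 8 libraries, with batch as a term. Atf4 (ENSMUSG00000042406, chromosome 15, 80255184 to 80257541, plus strand) measured 428, 434, 532 and 586 CPM in scramble replicates 1 to 4 and 395, 405, 499.6 and 492 CPM in Klf4 siRNA replicates 1 to 4. Batch 2 was high in both treatments, and Klf4 siRNA replicate 4, of batch 1, stood beside batch 2. The treatment difference was -0.059 (SE 0.090, adjusted p = 0.780, edgeR). In each replicate number the Klf4 siRNA library was below the scramble library. With the replicate number as a block in place of batch, the difference was -0.14 and was called (adjusted p = 0.0391, edgeR). Ddit3 (ENSMUSG00000025408, chromosome 10, 127290774 to 127296288, plus strand) measured 30.9, 26.7, 21.6 and 23.7 CPM in scramble and 33.0, 26.0, 23.3 and 24.5 CPM in Klf4 siRNA libraries. The treatments overlapped (-0.022, SE 0.11, adjusted p = 0.942, edgeR). A second Ddit3 entry, a 105-base gene model inside the first, had 0 counts in every library. The standard errors of Trib3 (0.16), Ppp1r15a (0.12) and Chac1 (0.20) were likewise larger than those of most other genes.

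Trib3 (a pseudokinase induced by CHOP), Chac1 (an enzyme that degrades glutathione), Ppp1r15a (GADD34, which restores translation) and Asns were then followed library by library. They were picked after their values were seen. Trib3 measured 27.0, 24.6, 39.3 and 42.5 CPM in scramble and 25.1, 22.3, 35.6 and 34.2 CPM in Klf4 siRNA replicates 1 to 4. Chac1 measured 43.9, 36.0, 60.8 and 63.2 CPM in scramble and 38.3, 35.2, 54.1 and 57.5 CPM in Klf4 siRNA libraries. In both genes the 3 batch 2 libraries and Klf4 siRNA replicate 4 were high and the other 4 batch 1 libraries low, with no overlap. Ppp1r15a measured 88.6, 82.3, 109 and 124 CPM in scramble and 99.8, 86.3, 118 and 118 CPM in Klf4 siRNA libraries, the same division. Asns measured 459, 459, 458 and 462 CPM in scramble and 422, 445, 426 and 467 CPM in Klf4 siRNA libraries. Klf4 siRNA replicate 4 was here the highest of the 8, and the other 3 Klf4 siRNA libraries were below every scramble library.

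**Figure D3:**
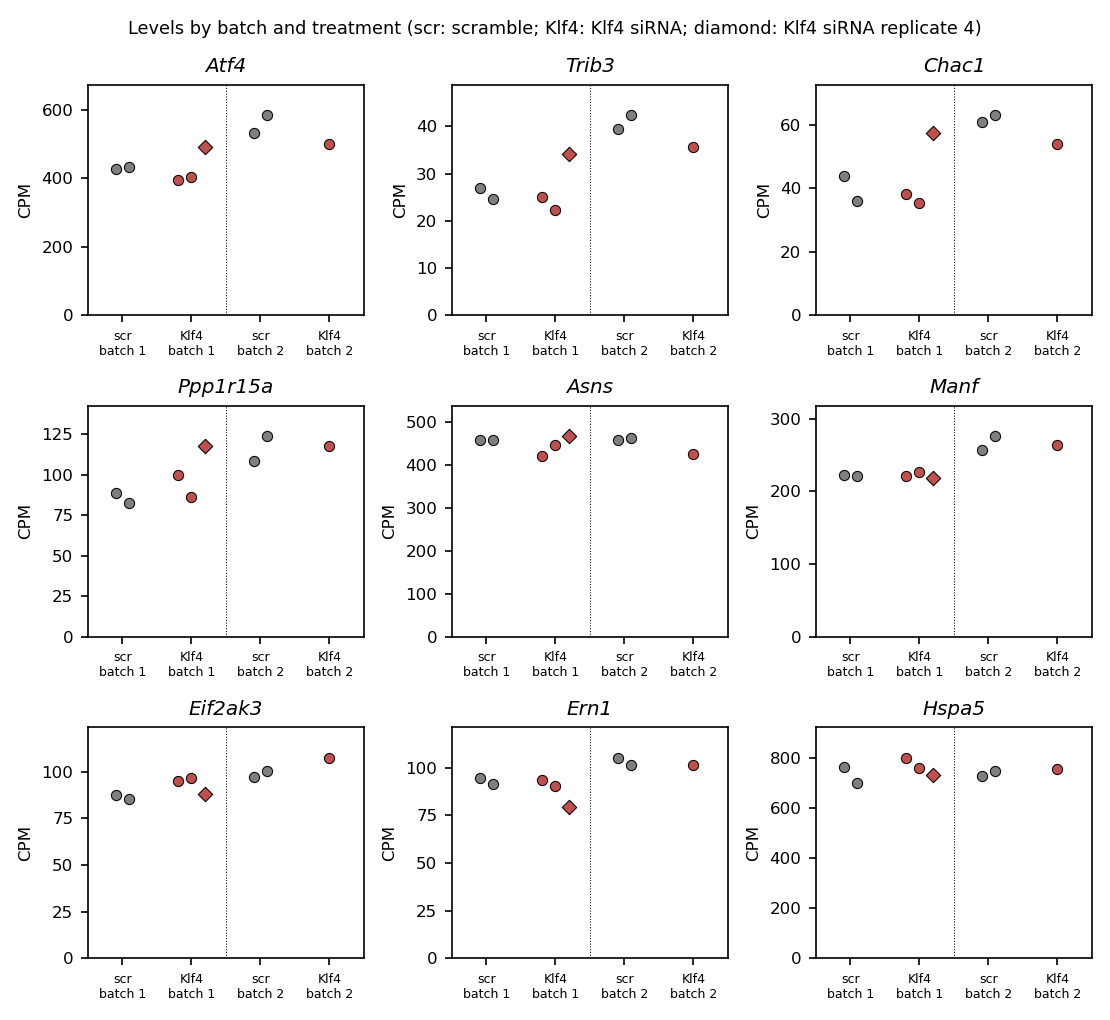
CPM of 9 genes in each library, from 0, by batch and treatment (grey scramble, red Klf4 siRNA); the diamond is Klf4 siRNA replicate 4. The diamond lies near the batch 2 points for Atf4 (492 CPM), Trib3 (34.2), Chac1 (57.5) and Ppp1r15a (118), above all points for Asns (467), with the batch 1 points for Manf (218) and Eif2ak3 (88.3), and below all points for Ern1 (79.4).

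Klf4 siRNA replicate 4 thus stood with the other batch for part of the response. Its place was set on a scale where 0 is the mean log2 CPM of Klf4 siRNA replicates 1 and 2 and 1 is that of Klf4 siRNA replicate 3. Without this library 6210 genes differed between batches, and 6074 of them were also tested with all 8 libraries. Over these 6074 its median place was 0.208, and 28.4% lay nearer to replicate 3. For the 21 of the 35 genes among them the median was 0.518, with 11 nearer to replicate 3. For the 5 genes of the Atf4 arm among them it was 0.932, with all 5 nearer to replicate 3. The arm was set apart after its values were seen, so this place was in part fixed by the choice. Asns and Ppp1r15b of the arm were not called between batches without this library and are left out. Outside the arm the places ran both ways, with Sdf2l1 at 1.12 and Manf at -0.138. Klf4 mRNA itself was at 0.902 in this library, 18.8 CPM against 12.5 and 11.5 in the other Klf4 siRNA libraries of batch 1 and 19.8 in that of batch 2. Whether the remaining Klf4 mRNA had a part in these values was not tested.

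Without Klf4 siRNA replicate 4, 8 of 35 genes were called for treatment (3 higher and 5 lower), against 12.1% of all genes (5.35% higher and 6.76% lower). The 4 earlier calls were all retained, with log2 fold changes of 0.12 for Xbp1, 0.10 for Canx, 0.14 for Eif2ak3 and -0.17 for Edem2. Added were Atf4 (-0.13, SE 0.032, adjusted p = 0.00791, edgeR), Trib3 (-0.16, SE 0.048, adjusted p = 0.0348), Asns (-0.092, SE 0.028, adjusted p = 0.0299) and Herpud1 (-0.21, SE 0.055, adjusted p = 0.0468). For Atf4, Asns and Herpud1 each of the 3 Klf4 siRNA libraries that remained was below both scramble libraries of its batch. For Trib3, Klf4 siRNA replicate 1 (25.1 CPM) was above scramble replicate 2 (24.6 CPM). Chac1 had a difference of -0.15 that did not pass (adjusted p = 0.248), and Ddit3 was at 0.033. Placing this library in batch 2 instead gave 3 calls of 35, all lower: Edem2 (-0.21), Herpud1 (-0.20) and Atf4 (-0.14). In that fit 8.14% of all genes were called and 4.49% were called lower, and Xbp1, Canx and Eif2ak3 were no longer called. Since the label of this library gives batch 1, the values from all 8 libraries with that label are the ones reported first.

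The second comparison set batch 2 against batch 1, with treatment as a term. Higher in batch 2 were the sensors Eif2ak3 and Ern1, the factor Xbp1, and Manf, Dnajb9, Hsp90b1 and Ssr2. Lower were 4 of the 8 ERAD genes (Sel1l, Derl3, Edem1 and Syvn1) and Sec61a1, Creld2 and Hyou1. Lower levels were not general to ERAD. Of 22 other ERAD genes, from a list described below, 6 were higher and 2 lower (median log2 difference 0.030). In all, 14 of 35 genes (40.0%) were called, against 32.7% of all genes. In the fit of genes with a mean of at least 5 CPM, 39.1% were called. Higher were 7, against 16.8% of all genes, and lower were 7, against 15.9%. The batches did not overlap for 17 genes (48.6%, against 29.4% of all genes). The marker sums of alpha cells, of beta cells and of stroma, endothelium and blood were higher in batch 2, as given above, and their part in these differences was not tested. Without Klf4 siRNA replicate 3, the only one of batch 2, 8 genes were called, against 23.2% of all genes. With Klf4 siRNA replicate 4 placed in batch 2, 7 of these 14 genes were no longer called: Hsp90b1, Manf, Dnajb9, Sec61a1, Eif2ak3, Syvn1 and Ern1 (adjusted p from 0.0664 to 0.611, edgeR). In that fit 13 of 35 were called, against 17.6% of all genes.

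Manf was higher in every batch 2 library. It measured 222, 221, 221, 226 and 218 CPM in batch 1 (scramble replicates 1 and 2, Klf4 siRNA replicates 1, 2 and 4) and 256, 276 and 264 CPM in batch 2 (scramble replicates 3 and 4, Klf4 siRNA replicate 3), and the log2 difference was 0.26 (SE 0.029, adjusted p = 6.56e-07, edgeR). Dnajb9 measured 45.7, 42.5, 47.8, 46.4 and 47.0 CPM in batch 1 and 48.3, 50.3 and 51.9 CPM in batch 2 in the same order (0.15, SE 0.035, adjusted p = 0.00185, edgeR). The batches did not overlap for either gene. From the values above, Eif2ak3 was higher by 0.20 (SE 0.033, adjusted p = 0.000104, edgeR) and Xbp1 by 0.16 (SE 0.030, adjusted p = 0.000300, edgeR). Ern1 was higher by 0.18, Hsp90b1 by 0.10 and Ssr2 by 0.11 on the log2 scale. Pseudogenes on the opposite strand cover 12.8% of the exon bases of Ssr2 and 10.3% of those of Hsp90b1.

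Sel1l, the adaptor of the Syvn1 ubiquitin ligase, was among the genes lower in batch 2. It measured 142, 143, 152, 148 and 144 CPM in the batch 1 libraries and 128, 124 and 133 CPM in the batch 2 libraries, in the order used for Manf. The batches were separate, and the log2 difference was -0.17 (SE 0.029, adjusted p = 0.000104, edgeR). Edem1, a relative of Edem2, measured 112, 108, 109, 110.0 and 104 CPM in batch 1 and 99.0, 95.5 and 99.6 CPM in batch 2 (-0.15, SE 0.031, adjusted p = 0.000903, edgeR). Derl3, the rarest of the 35 genes, measured 4.62, 4.14, 5.68, 4.39 and 3.43 CPM in batch 1 and 2.09, 2.45 and 2.43 CPM in batch 2. The batch difference of Derl3 was -0.93 (SE 0.15, adjusted p = 0.000205, edgeR), the largest of the 35 in this fit, with a level of 0.526 of that in batch 1 on the linear scale. With the replicate number as a block beside the batch term it was -0.28 and no longer called (adjusted p = 0.442, edgeR). Klf4 siRNA replicate 4 was the lowest of batch 1 for both Edem1 and Derl3. Sec61a1 measured 617, 611, 597, 622 and 619.7 CPM in batch 1 and 571, 576 and 565 CPM in batch 2 (-0.11, SE 0.028, adjusted p = 0.00583, edgeR), and an antisense gene covers 8.16% of its exon bases. The Sec61a1 call was lost without Klf4 siRNA replicate 3 (adjusted p = 0.0802, edgeR). Creld2 (-0.27), Hyou1 (-0.095) and Syvn1 (-0.092) were lower by the same test.

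No gene of the Atf4 arm was called between batches with all 8 libraries, 0 of 7, although Trib3 had a log2 difference of 0.55 (SE 0.16, adjusted p = 0.0584, edgeR), Chac1 of 0.50 and Atf4 of 0.31 (SE 0.092, adjusted p = 0.0524, edgeR). Without Klf4 siRNA replicate 4, 5 of 7 were called. Trib3 (0.63, SE 0.047, adjusted p = 8.34e-10, edgeR), Chac1 (0.60, SE 0.069, adjusted p = 0.000360), Ppp1r15a (0.40, SE 0.078, adjusted p = 0.0128) and Atf4 (0.35, SE 0.031, adjusted p = 4.89e-09) were higher in batch 2. Ddit3 was lower (-0.34, SE 0.10, adjusted p = 0.0454, edgeR), opposite to Atf4, and Ppp1r15b and Asns did not pass. The scramble libraries alone, which leave out the siRNA against Klf4, also gave 5 of 7 (4 higher and 1 lower), against 27.3% of all genes in that fit. Over all 35 genes, 21 were called without this library (12 higher and 9 lower), against 37.2% of all genes.

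**Figure D4:**
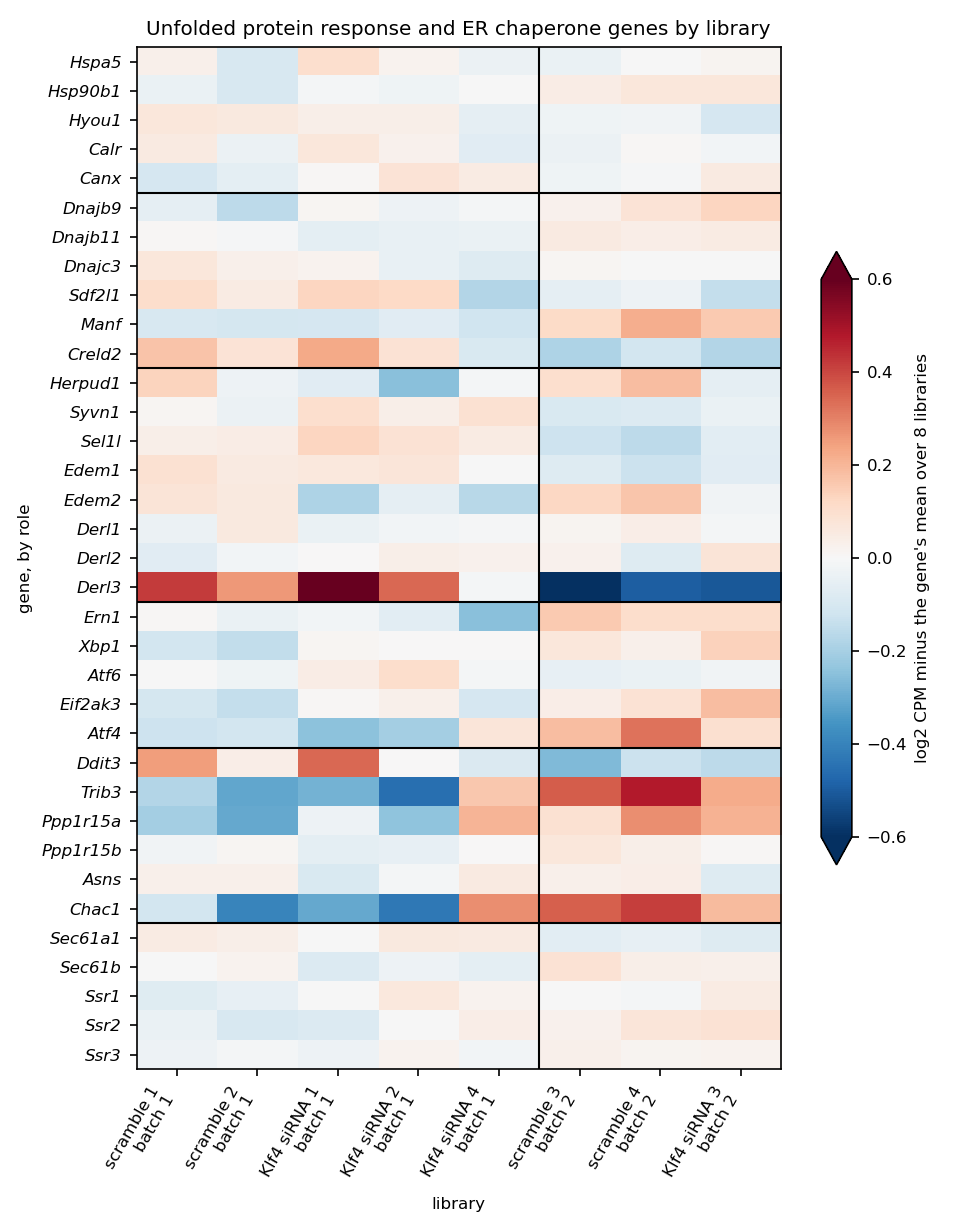
Log2 CPM of the 35 genes (rows, by role, with lines between roles) in the 8 libraries (columns, batch 1 left and batch 2 right of the vertical line), as the difference from each gene's mean over the 8 libraries; red is higher and blue lower, and the scale stops at 0.6. Trib3, Chac1 and Ppp1r15a are red in batch 2 and in Klf4 siRNA replicate 4, and Derl3 is blue in batch 2.

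Whether the treatment difference changed between batches was asked with an interaction term in edgeR. None passed, 0 of 35 genes and 0% of all genes. At an unadjusted p of 0.05, 0 of the 35 genes and 540 of all 16333 passed. DESeq2's Wald test and limma-voom also called 0 of the 35 genes. The edgeR fit had 4 residual degrees of freedom. Batch 2 held 1 Klf4 siRNA library, so the treatment difference within batch 2 rested on that library.

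Of the 8 genes with the ER stress response element in their promoters, 1 was called for treatment (Canx, higher), against 11.7% of all genes, and the log2 fold changes ran from -0.055 to 0.11. Between batches 4 of the 8 were called, 1 higher (Hsp90b1) and 3 lower (Creld2, Derl3 and Syvn1), against 32.7% of all genes. Hspa5, printed above, was at -0.00034 between batches and Calr at -0.026, neither called.

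Other genes of the pathways were read from lists that hold none of the 35. Of 22 other ERAD genes tested, 6 rose and 2 fell with Klf4 siRNA (36.4% called), with a median log2 fold change of 0.024. Svip, an inhibitor of ERAD at the ER membrane, fell by 0.37 (adjusted p = 0.000769, edgeR). Fam8a1 (0.15), an accessory factor of the Syvn1 complex, Ufd1 (0.14), an adaptor of the segregase p97, and Herpud2 (0.17), the paralog of Herpud1, rose. Of 20 other translocon, signal peptidase and targeting genes, 3 rose and 3 fell (30.0% called, median 0.00096). Within the signal peptidase Spcs3 rose by 0.18 while Sec11a fell by 0.15. Sec62 fell by 0.13 and Srp19 rose by 0.11, all on the log2 scale.

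Of 24 other folding and glycoprotein quality control genes, 5 rose and 5 fell (41.7% called, median -0.0066). The oxidase Ero1lb rose by 0.30, and the disulfide isomerases Pdia6 (-0.22) and Pdia4 (-0.17) and the prolyl isomerase Fkbp11 (-0.22) fell. Of 17 other sensors, proteases and ER-bound factors, 2 rose and 2 fell (23.5% called, median 0.015). Atf6b (0.12) and Creb3l2 (0.13), membrane-bound transcription factors, rose, and Mbtps1 (-0.13), the protease that first cuts Atf6, and the kinase Map3k5 (-0.15) fell. Of 27 other Atf4 pathway genes, 1 rose and 5 fell (22.2% called, median -0.041). Slc7a11, the cystine transporter, rose by 0.35, and Phgdh (-0.22) of serine synthesis, the tRNA synthetase Gars (-0.16) and the transcription factor Atf5 (-0.12) fell. Without Klf4 siRNA replicate 4 the same list gave 1 higher and 9 lower. In that fit the other lists gave 4 higher and 3 lower (ERAD), 2 and 4 (translocon), 5 and 5 (folding) and 3 and 2 (sensors). Of all genes, 5.35% were higher and 6.76% lower there. Beside the shares with all 8 libraries, 11.7% of all genes and 19.4% of those with a mean of at least 5 CPM were called for treatment. Between batches the lists gave 6 higher and 2 lower (ERAD), 8 and 1 (translocon) and 5 and 3 (folding). The sensor list gave 4 and 2 and the Atf4 pathway list 8 and 1. The shares called between batches ran from 33.3% to 45.0%, against 32.7% of all genes. The lists were not tested as sets.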

How the data were processed

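The deposited table gives raw counts of reads for every gene in each of the 8 libraries. Reads were trimmed with cutadapt, per the table's name, and sequencing libraries came from poly(A) RNA and a Tecan kit, per the labels' protocols. STAR, featureCounts, FastQC, DESeq2 and mm10 are named, without role or order, per the submitters' processing notes, while the design text names edgeR with batch correction. The use of strand in counting is not given in the sources used here. All 55536 identifiers matched GENCODE M21 of GRCm38, from which positions, exon lengths and overlaps were taken.

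Low genes were removed by filterByExpr with treatment as the group. The tests were made in edgeR 4.0.16 (R 4.3.3) with TMM scaling and its robust quasi-likelihood model, with terms for treatment and batch, over all 8 libraries and 5 residual degrees of freedom. Two-sided p-values were adjusted (Benjamini-Hochberg) over the 16333 tested genes, and 0.05 was the threshold. An SE is the size of a log2 fold change over the square root of its F statistic. Differences within a batch and places between libraries use log2 CPM (prior count 2). The interaction was fitted separately. The code was tested on simulated counts. Without molecular identifiers counts may include PCR duplicates, and errors come from the spread over libraries.

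The genes and lists were chosen with earlier results of these data known. Values in every library are given for Hspa5, Xbp1, Atf4, Ddit3, each gene called for treatment and the 8 genes with the smallest adjusted p for batch, and up to 4 called genes are named from each other list. The lists held 24, 20, 19, 28 and 24 symbols; Ufd1l and Vimp had no row of their own, and Creb3l4, Ern2 and Gdf15 were too low to test. Alternatives were other scalings, filters, tools (DESeq2 1.42.0, limma 3.58.1), models and thresholds, and each library left out in turn. Placing Klf4 siRNA replicate 4 in batch 2 and counting the Atf4 arm by itself were added after seeing the data. No 2 libraries agreed within sampling noise (smallest chi-square per degree of freedom 10.2).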

Additional observations from a re-analysis of the deposited data

Results flagged for a closer look

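In 3 of 70 groups of 4 libraries (35 genes, each treatment) an end library stood apart by more than Dixon's 95% critical value for 4 libraries, taking the gap to its neighbour over the range of the group. Chance flags about 1 in 20 groups, or 3.5 of 70. For Manf, Klf4 siRNA replicate 3 had 264 CPM against 218 to 226 CPM in the other Klf4 siRNA libraries (ratio 0.834). For Xbp1 the same library had 69.1 CPM against 62.9 to 63.2 CPM (ratio 0.940). It is the only Klf4 siRNA library of batch 2. For Asns, scramble replicate 4 had 462.0 CPM against 458 to 459 CPM in the other scramble libraries (ratio 0.930), a gap that is small beside the spread of the Klf4 siRNA libraries (422 to 467 CPM).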

How the results depend on the processing

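The number of the 35 genes called for treatment was 4 with all libraries and ran from 1 to 8 when 1 library was left out (5.63% to 12.1% of all genes). It was 0 without a batch term (2.50% of all genes), 2 in batch 1 alone (7.44%) and 1 at an adjusted p of 0.01 (6.10%). Replicate numbers were not taken to pair the libraries, and whether they do is not settled. Deviations of same-numbered libraries from their treatment means correlated at 0.49, 0.42, 0.72 and -0.34 for numbers 1 to 4, and at -0.00053, -0.040, -0.30 and 0.12 once batch was removed. Removing means from so few libraries constrains these correlations, so they cannot exclude pairing. By chi-square per degree of freedom, the nearest library of scramble replicates 1, 2 and 3 was the Klf4 siRNA library of that number (10.42, 18.25 and 18.34). For scramble replicate 4 it was Klf4 siRNA replicate 3 (47.1). With the replicate block and the batch term, 16 genes were called for treatment (10 higher and 6 lower; 19.1% of all genes), 7 for batch (5 of them among the 14 reported; 16.9% of all genes) and 2 of the Atf4 arm for batch. With the replicate block instead of batch, 4 were called for treatment, all lower and 1 of them shared with the reported calls (7.47% of all genes). Atf4 was among these 4 (-0.14, adjusted p = 0.0391, edgeR). The number called for batch, 14, ran from 8 to 21 with 1 library left out (23.2% to 37.2% of all genes). In the Atf4 arm, 0 of 7 genes were called for batch, and 0 to 5 with 1 library left out. That count, with the share of all genes called in brackets, was 5 in scramble libraries alone (27.3%), 5 with Klf4 siRNA replicate 4 placed in batch 2 (17.6%), 3 with library size alone (33.2%), 4 with DESeq2's Wald test (28.9%), 1 with limma-voom (32.5%), 1 without a filter (17.9%) and 2 with a mean of at least 5 CPM (39.1%). The Klf4 log2 fold change was -1.39 in batch 1 alone (adjusted p = 0.104, edgeR) and ran from -1.46 to -1.24 with 1 library left out, missing the threshold without scramble replicate 1 (-1.27, adjusted p = 0.0524, edgeR).

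The sign of Ddit3 for treatment, never called, turned to 0.052 without a batch term, 0.051 with the block in place of batch, 0.055 with block and batch and 0.052 with Klf4 siRNA replicate 4 in batch 2, and ran from -0.10 to 0.047 with 1 library left out. For batch, with block and batch, Ddit3 turned to 0.011 and Ppp1r15b to -0.024. Asns for batch turned to 0.0059 in scramble libraries alone and 0.024 with Klf4 siRNA replicate 4 in batch 2, and ran from -0.037 to 0.0054 with 1 library left out. The cause of these shifts was not tested. The interaction could not be fitted without Klf4 siRNA replicate 3. The SE of the treatment difference ran from 0.026 (Dnajb11) to 0.20 (Chac1), and it was largest for Chac1, Trib3 and Derl3. A gene not called is not shown to be equal.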
